A study of Mus musculus with 9 samples.

Results

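Troponins and tropomyosins are the calcium switch of the striated muscle thin filament, and mammals make fast and slow versions of most of them. The 9 genes described here are 4 slow ones (Tnni1, Tnnt1, Tnnc1 and Tpm3) and 5 fast ones (Tnni2, Tnnt3, Tnnc2, Tpm1 and Tpm2). They were taken by gene symbol, and all 9 were found among 23231 genes. RNA came from the tibialis anterior, a shin muscle built mainly of fast fibres, of C57BL/6 mice aged 6 months. The muscles had received an siRNA by electroporation. There were 3 groups of 3 libraries: UBR4_siRNA5 and UBR4_siRNA7, each with an siRNA construct against Ubr4, and NT_siRNA, with a non-targeting control siRNA. UBR4 is a very large E3 ubiquitin ligase, and the series asks which ubiquitin ligases set muscle fibre size. Myh4, a fast myosin, stood at 4652 to 7936 FPKM and Myh7, the slow myosin, at 0.0598 to 1.49 FPKM over the 9 libraries. Which fibres took up the siRNA, when the muscles were taken and whether each library came from its own animal are not given in the sources used here, so p-values measure only the spread between libraries, which may be technical.

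In the thin filament, tropomyosin runs as a coiled coil along actin and covers the sites that myosin binds. Troponin T anchors the troponin complex to tropomyosin, troponin I inhibits the contact between actin and myosin, and troponin C lifts that inhibition when it binds calcium. Slow and fast fibres make these subunits from separate genes, so the ratio of a fast to a slow transcript is a common readout of fibre type. Tpm2 (beta tropomyosin) is made in both fibre types and is counted here with the fast genes, as is Tpm1 (alpha tropomyosin). Tpm3 encodes slow tropomyosin and also forms made outside muscle.

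Values are FPKM, the reads of a gene scaled to its length in kilobases and to the depth of the library, as the authors deposited them. Recovered depths were 29312122 to 45563545 reads per library. Fold changes are on the log2(FPKM + 1) scale from limma over all 9 libraries, called at a Benjamini-Hochberg adjusted p under 0.05 over 10794 tested genes with a mean of at least 1 FPKM. Ubr4 itself stood at 3.61, 3.80 and 2.73 FPKM with UBR4_siRNA5 and at 2.25, 2.58 and 3.07 FPKM with UBR4_siRNA7, against 7.82, 10.3 and 9.09 FPKM with NT_siRNA. On the log2 scale it fell by 1.20 with UBR4_siRNA5 (limma adjusted p = 0.0168) and by 1.47 with UBR4_siRNA7 (limma adjusted p = 0.00882), with no overlap between groups. Its adjusted p reached 0.0956 and 0.0877 in these comparisons when single libraries were left out (replicate 2 or 3 of NT_siRNA, and replicate 1 of UBR4_siRNA5 or replicate 2 of UBR4_siRNA7), and was 0.0523 and 0.0976 without the filter on low values. The median gene stood 0.13 higher with UBR4_siRNA5 than with NT_siRNA, and median-ratio scaling moved that median to -0.02. With that scaling the split of called genes in this comparison became 28 higher and 169 lower, against 504 higher and 65 lower as deposited.

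The fast genes far outweighed the slow ones in every library. The slow genes together made up 0.188% ± 0.0313 of the FPKM of the 9 genes with UBR4_siRNA5 and 0.118% ± 0.0685 with UBR4_siRNA7, against 0.0836% ± 0.0123 with NT_siRNA (SD, n = 3 each). All 9 genes together held 5.20% ± 0.368, 5.15% ± 0.457 and 5.77% ± 0.324 of the FPKM total with UBR4_siRNA5, UBR4_siRNA7 and NT_siRNA (SD, n = 3 each). In the NT_siRNA libraries, on the FPKM scale, the order from the top was Tnnt3, Tnnc2, Tnni2, Tpm2, Tpm1, Tnnt1, Tnni1, Tpm3 and Tnnc1. Of the neighbours in that order, Tpm2 and Tpm1 overlapped (2577 to 2691 FPKM and 2418 to 2618 FPKM). Tnnt1 and Tnni1, Tnni1 and Tpm3, and Tpm3 and Tnnc1 overlapped as well. The remaining neighbours did not overlap. FPKM divides by a merged gene length, 6485 bases for Tpm1 and 800 bases for Tnnc2, so the order of genes depends on those lengths while comparisons of 1 gene between libraries do not. Tpm3 has a near-identical copy, Tpm3-rs7, Tnnt3 overlaps Prr33 and Tpm2 overlaps Car9 in RefSeq (GRCm38.p6), and no source used here says whether counting used strand, so these 3 values are uncertain. At 95%, counting error was at most 21.9% of the value for a slow gene, in the Tnnc1 library with 85 reads, and at most 0.493% for a fast gene, and these limits cover counting error only.

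Slow troponin I and slow troponin T were the members that varied most. Tnni1 (ENSMUSG00000026418) encodes the slow inhibitory subunit, which developing muscle also makes. It stood at 23.2, 16.4 and 17.2 FPKM with UBR4_siRNA5 and at 2.30, 24.3 and 5.14 FPKM with UBR4_siRNA7, against 6.11, 9.04 and 6.89 FPKM with NT_siRNA. Every UBR4_siRNA5 library lay above every NT_siRNA library, whereas with UBR4_siRNA7 replicate 2 was the highest of all 9 libraries and replicate 1 the lowest. The 125 reads behind that lowest value and the 1593 reads behind the highest put the gap outside counting error. The log2 change was 1.25 (SE 0.586, 95% interval -0.06 to 2.57, limma adjusted p = 0.173) with UBR4_siRNA5 and -0.05 (95% interval -1.36 to 1.27, limma adjusted p = 0.993) with UBR4_siRNA7. Neither passed the test. In whole muscle, a change in the share of fibres that make Tnni1 and a change in Tnni1 RNA per fibre cannot be told apart, and the same holds for each gene below.

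Tnnt1 (ENSMUSG00000064179), slow troponin T, followed the same libraries. Its values were 17.3, 18.9 and 12.5 FPKM with UBR4_siRNA5 and 5.36, 18.3 and 7.62 FPKM with UBR4_siRNA7, against 6.76, 8.67 and 7.84 FPKM with NT_siRNA. Again all UBR4_siRNA5 libraries and replicate 2 of UBR4_siRNA7 were the highest 4 of 9, and the other UBR4_siRNA7 libraries lay among or below the NT_siRNA ones. On the log2 scale the change was 0.96 (SE 0.340, 95% interval 0.20 to 1.73, unadjusted p = 0.0189, limma adjusted p = 0.101) with UBR4_siRNA5 and 0.22 (SE 0.340, limma adjusted p = 0.901) with UBR4_siRNA7. Between the constructs, UBR4_siRNA7 against UBR4_siRNA5, the log2 changes were -1.30 for Tnni1 (limma adjusted p = 0.221) and -0.74 for Tnnt1 (limma adjusted p = 0.228). Both genes passed the test without replicate 2 of UBR4_siRNA7. With UBR4_siRNA5 against NT_siRNA, adjusted p was then 0.0400 for Tnni1 and 0.0389 for Tnnt1 (limma), where 5.38% of all tested genes passed. With UBR4_siRNA7 against UBR4_siRNA5, the log2 changes were then -2.13 (limma adjusted p = 0.0115) and -1.20 (limma adjusted p = 0.0211), where 3.59% passed. When other single libraries were left out, adjusted p reached 0.379 and 0.257 in the first comparison (limma). In the second it reached 0.513 and 0.504 (limma).

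The 250 bases before the RefSeq start of 3 slow troponin genes are shown because Tnni1 and Tnnt1 were highest in the same 4 libraries and Tnnc1 shared 3 of them. Letters are 5′ to 3′ on the gene's strand, from RefSeq on GRCm38.p6, with motif matches in capitals. The Tnni1 window is the first of 2 listed starts (chr1:135799171-135799420, plus strand), Tnnt1 lies at chr7:4515976-4516225 (minus strand) and Tnnc1 at chr14:31208062-31208311 (plus strand).
Tnni1: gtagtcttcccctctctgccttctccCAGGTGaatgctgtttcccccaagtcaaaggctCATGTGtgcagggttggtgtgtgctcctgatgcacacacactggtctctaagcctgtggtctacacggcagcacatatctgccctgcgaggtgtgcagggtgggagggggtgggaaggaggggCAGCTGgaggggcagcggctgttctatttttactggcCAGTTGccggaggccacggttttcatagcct
Tnnt1: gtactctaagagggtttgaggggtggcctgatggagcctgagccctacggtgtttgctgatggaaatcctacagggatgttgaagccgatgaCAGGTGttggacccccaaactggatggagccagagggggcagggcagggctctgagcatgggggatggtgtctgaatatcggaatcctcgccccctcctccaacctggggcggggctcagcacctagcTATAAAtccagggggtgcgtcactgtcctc
Tnnc1: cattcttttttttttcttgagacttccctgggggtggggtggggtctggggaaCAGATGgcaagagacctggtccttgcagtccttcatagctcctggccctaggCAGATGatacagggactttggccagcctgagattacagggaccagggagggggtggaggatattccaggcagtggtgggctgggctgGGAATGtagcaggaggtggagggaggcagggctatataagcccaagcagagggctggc
The motifs searched on both strands were the E-box CANNTG, the M-CAT element CATTCC, the TATA element TATAAA, and the MEF2 and CArG motifs by name. In 32851 promoter windows of this length, 66.2% held an E-box, 12.6% an M-CAT element, 12.4% a TATA element, 2.92% a MEF2 motif and 1.47% a CArG motif. The Tnni1 window held 4 E-boxes, the Tnnt1 window 1 E-box and 1 TATA element, and the Tnnc1 window 2 E-boxes and 1 M-CAT element (its reverse complement, GGAATG, is in capitals). No match overlapped another, and none of the 3 windows held a MEF2 or CArG match. Windows were found for 7 of the 9 members. Such matches describe the letters of these windows, and no binding was measured.

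The other slow genes differed less between libraries. Tnnc1 encodes the troponin C of slow fibres and heart, and the table lists it without an Ensembl identifier. Tnnc1 stood at 4.72, 6.04 and 4.82 FPKM with UBR4_siRNA5 and at 2.54, 4.36 and 3.93 FPKM with UBR4_siRNA7, against 5.58, 2.86 and 2.62 FPKM with NT_siRNA. Replicate 1 of NT_siRNA lay within the UBR4_siRNA5 range, so these groups overlapped, but every UBR4_siRNA7 library lay below every UBR4_siRNA5 library. Groups lay apart in that direction for 22.4% of all tested genes, and for 1 of the 4 slow members, Tnnc1. With median-ratio scaling, and also with quantile normalization, the UBR4_siRNA7 and UBR4_siRNA5 libraries overlapped for Tnnc1. Its log2 change was 0.45 (SE 0.230, limma adjusted p = 0.205) with UBR4_siRNA5, 0.01 (limma adjusted p = 0.998) with UBR4_siRNA7, and -0.44 (limma adjusted p = 0.278) with UBR4_siRNA7 against UBR4_siRNA5. Tnnc1 rested on the fewest reads of any member, 85 in its lowest library.

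Tpm3 (ENSMUSG00000027940) showed the smallest spread of the slow genes. It stood at 6.52, 9.35 and 6.49 FPKM with UBR4_siRNA5 and at 5.97, 6.62 and 7.03 FPKM with UBR4_siRNA7, against 6.80, 6.28 and 4.35 FPKM with NT_siRNA. All groups overlapped. The fitted log2 change was 0.31 (SE 0.162, limma adjusted p = 0.211) with UBR4_siRNA5 and 0.16 (SE 0.162, limma adjusted p = 0.815) with UBR4_siRNA7. Its copy Tpm3-rs7 averaged 2.94 ± 0.796 FPKM with UBR4_siRNA5 and 2.31 ± 0.628 FPKM with UBR4_siRNA7, against 2.59 ± 0.491 FPKM with NT_siRNA (SD, n = 3 each), and how the counting divided reads between the pair is not given in the sources used here.

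**Figure D1:**
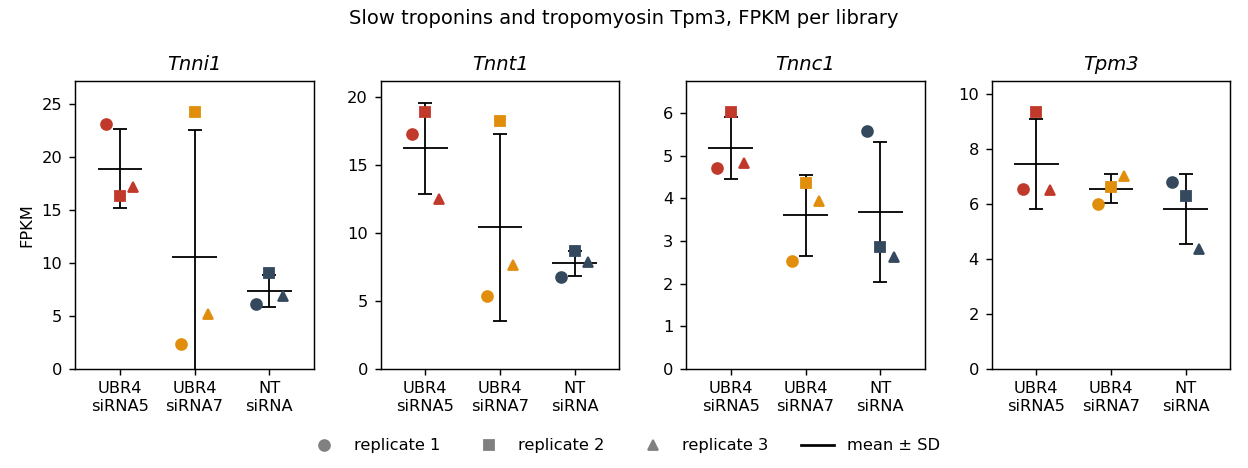
FPKM (vertical axis, from 0, with its own scale in each panel) of Tnni1, Tnnt1, Tnnc1 and Tpm3 in each library of UBR4_siRNA5, UBR4_siRNA7 and NT_siRNA; points are libraries, shaped by replicate number, and bars are the mean ± SD (cut at 0 for Tnni1 with UBR4_siRNA7). For Tnni1 the UBR4_siRNA5 libraries lie between 16.4 and 23.2 FPKM, all above the NT_siRNA libraries, and the UBR4_siRNA7 libraries spread between 2.30 and 24.3 FPKM.

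Of the 5 fast genes 4 stood lower in every library with a UBR4 siRNA, by small amounts, and none passed the test. Tnni2 (ENSMUSG00000031097), fast troponin I, stood at 3483, 3159 and 3473 FPKM with UBR4_siRNA5 and at 3664, 3549 and 3146 FPKM with UBR4_siRNA7, against 4162, 3845 and 4185 FPKM with NT_siRNA. All 6 libraries with a UBR4 siRNA lay below all 3 NT_siRNA libraries. The mean with UBR4_siRNA5 was 83.0% of the NT_siRNA mean and that with UBR4_siRNA7 was 85.0%. Its log2 change was -0.27 (SE 0.0918, 95% interval -0.48 to -0.06, limma adjusted p = 0.0949) with UBR4_siRNA5, -0.24 (SE 0.0918, 95% interval -0.44 to -0.03, limma adjusted p = 0.454) with UBR4_siRNA7, and -0.25 (SE 0.0795, unadjusted p = 0.0105, limma adjusted p = 0.153) with both together.

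Tnnt3 (ENSMUSG00000061723), fast troponin T and the most abundant member, gave 9482, 8528 and 9596 FPKM with UBR4_siRNA5 and 9781, 9954 and 8879.9 FPKM with UBR4_siRNA7, against 10959.5, 10328.5 and 11364 FPKM with NT_siRNA. These groups did not overlap either. In the limma fit the log2 change was -0.24 (SE 0.0947, limma adjusted p = 0.122) with UBR4_siRNA5 and -0.19 (SE 0.0947, limma adjusted p = 0.586) with UBR4_siRNA7. Tnnc2 (ENSMUSG00000017300), fast troponin C, gave 8512, 7575 and 8714 FPKM with UBR4_siRNA5 and 8379, 8637 and 7397.5 FPKM with UBR4_siRNA7, against 9710.4, 8787 and 9838 FPKM with NT_siRNA. The gap was narrow, with the highest UBR4_siRNA5 library just under the lowest NT_siRNA one. The log2 change was -0.19 (SE 0.103, limma adjusted p = 0.221) with UBR4_siRNA5 and -0.22 (SE 0.103, limma adjusted p = 0.560) with UBR4_siRNA7.

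Tpm1 (ENSMUSG00000032366), alpha tropomyosin, gave 2309, 1771 and 2271 FPKM with UBR4_siRNA5 and 2296, 2321 and 1845 FPKM with UBR4_siRNA7, against 2474, 2418 and 2618 FPKM with NT_siRNA. The groups lay apart, and 1 library in each UBR4 siRNA group, replicate 2 of UBR4_siRNA5 and replicate 3 of UBR4_siRNA7, stood well below the rest. On the log2 scale the change was -0.25 (SE 0.129, limma adjusted p = 0.205) with UBR4_siRNA5 and -0.22 (SE 0.129, limma adjusted p = 0.634) with UBR4_siRNA7. Tpm2 (ENSMUSG00000028464), beta tropomyosin, gave 2383, 2548 and 2553 FPKM with UBR4_siRNA5 and 2313, 3025 and 2515 FPKM with UBR4_siRNA7, against 2631, 2691 and 2577 FPKM with NT_siRNA. Here the UBR4_siRNA5 libraries lay below the NT_siRNA ones and the UBR4_siRNA7 libraries lay on both sides of them. The fitted log2 change was -0.08 (SE 0.104, limma adjusted p = 0.617) with UBR4_siRNA5 and -0.02 (SE 0.104, limma adjusted p = 0.982) with UBR4_siRNA7.

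**Figure D2:**
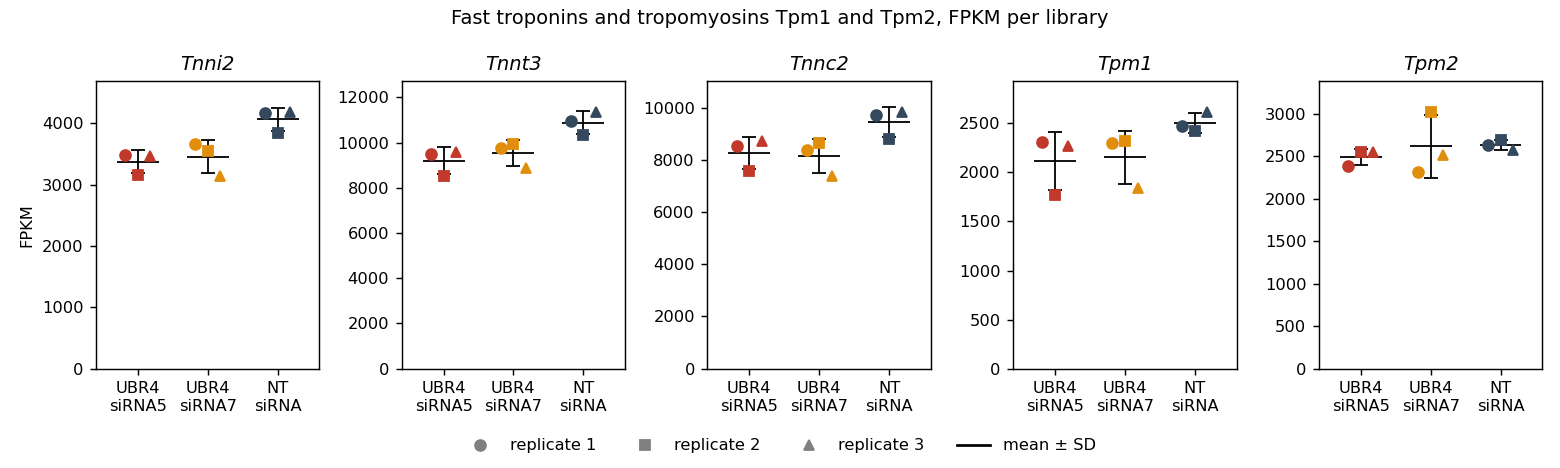
FPKM (vertical axis, from 0, with its own scale in each panel) of Tnni2, Tnnt3, Tnnc2, Tpm1 and Tpm2 in each library of UBR4_siRNA5, UBR4_siRNA7 and NT_siRNA; points are libraries, shaped by replicate number, and bars are the mean ± SD. For 4 of the 5 genes every UBR4 siRNA library lies below every NT_siRNA library, and Tpm2 is the exception.

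Counted over the set, 0 of 9 members passed the test in any of the 4 comparisons. The share called among all 10794 tested genes was 5.27% with UBR4_siRNA5 against NT_siRNA, 0.0556% with UBR4_siRNA7 against NT_siRNA, 0.00926% with both constructs against NT_siRNA and 1.22% with UBR4_siRNA7 against UBR4_siRNA5. With median-ratio scaling the split of called genes in the last comparison was 66 higher and 39 lower, against 16 higher and 116 lower as deposited. At an unadjusted limma p under 0.05 the counts of members were 3, 1, 3 and 0 of 9 in the same comparisons, where 31.9%, 9.47%, 19.1% and 23.1% of all tested genes passed, and voom on reads recovered from the FPKM steps called 0 in each as well. Fitted on the 6 libraries of UBR4_siRNA5 and NT_siRNA alone, limma called 2 members, Tnni1 (adjusted p = 0.0341) and Tnnt1 (adjusted p = 0.0436), and 2.28% of all tested genes.

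By direction, all 4 slow genes had positive and all 5 fast genes negative log2 changes with UBR4_siRNA5, with medians of 0.71 and -0.24 beside 0.13 over all tested genes. Relative to the median of all genes these were 0.58 and -0.37, and with median-ratio scaling 0.56 and -0.41. With UBR4_siRNA7 the medians were 0.09 for the slow and -0.22 for the fast genes, beside 0.02 over all tested genes. With UBR4_siRNA5 the slow genes that lay wholly above NT_siRNA numbered 2, Tnni1 and Tnnt1, where 33% of all tested genes did, and the fast genes wholly below numbered 5, where 5.19% did. Tnni1 and Tnnt1 also lay wholly above with median-ratio scaling, where 10.9% of all tested genes did. They did so after quantile normalization too, where 11.2% did. Without replicate 1 of NT_siRNA, all 4 slow genes lay wholly above, where 37.9% of all tested genes did. With UBR4_siRNA7 the slow genes wholly above NT_siRNA numbered 0, where 10.5% of tested genes did, and the fast genes wholly below numbered 4, where 6.26% did. With all 6 UBR4 siRNA libraries against NT_siRNA the fast genes wholly below were Tnni2, Tnnt3, Tnnc2 and Tpm1, 4 of 5, where 1.45% of tested genes did, and 0 slow genes lay wholly above, where 8.04% did. The count of 4 for both constructs was 4 with median-ratio scaling, where 4.21% of all tested genes lay wholly below, and 0 after quantile normalization, where 3.47% did. After quantile normalization the fast median was -0.06 with UBR4_siRNA5 and -0.08 with UBR4_siRNA7. Between constructs, 0 fast genes lay wholly higher with UBR4_siRNA7 than with UBR4_siRNA5, where 3.02% of tested genes did. The comparisons with NT_siRNA share its 3 libraries, so they are not independent of each other.

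**Figure D3:**
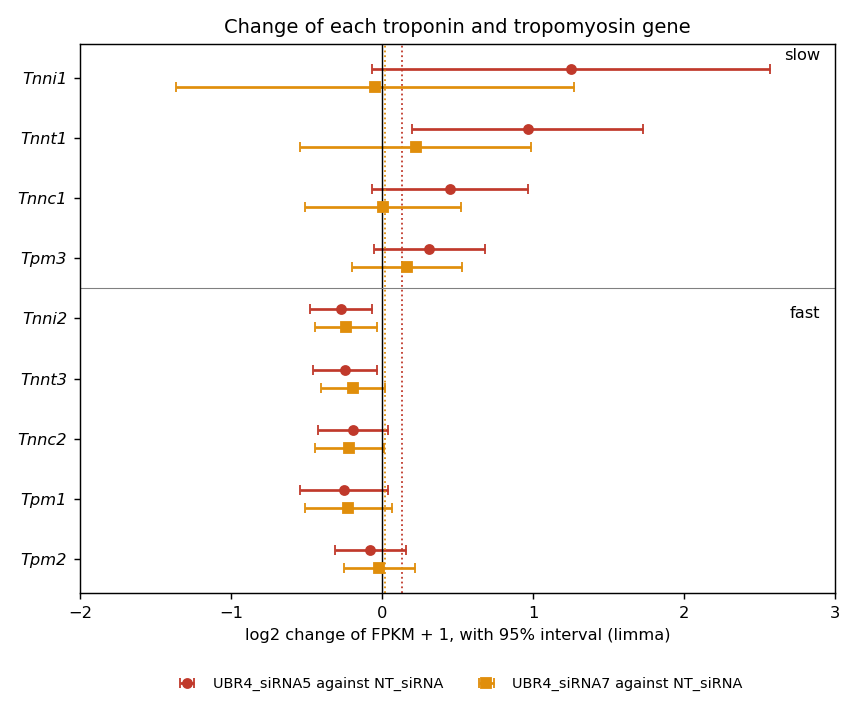
Log2 change of FPKM + 1 (horizontal axis) with its 95% interval from limma for each of the 4 slow and 5 fast genes, UBR4_siRNA5 (circles) and UBR4_siRNA7 (squares) each against NT_siRNA; the dotted lines mark the median of all tested genes, 0.13 and 0.02. The intervals of Tnni1 and Tnnt1 are the widest, and the fast genes lie left of both dotted lines within a narrow band.

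Ratios of a fast to a slow gene in the same library do not depend on scaling by a single factor per library. Quantile normalization can change them, because it moves high and low values by different amounts. Troponin I had Tnni2/Tnni1 ratios of 150.4, 193 and 202 with UBR4_siRNA5 and of 1595, 146 and 612 with UBR4_siRNA7, against 681, 425 and 607 with NT_siRNA. All UBR4_siRNA5 ratios lay below the NT_siRNA ones, while UBR4_siRNA7 held both the highest ratio of the study, in replicate 1, and the lowest, in replicate 2. The mean log2 ratio was 7.50 ± 0.231 with UBR4_siRNA5 and 9.03 ± 1.73 with UBR4_siRNA7, against 9.13 ± 0.354 with NT_siRNA (SD, n = 3 each). The difference was -1.63 with UBR4_siRNA5, a ratio of 32.2% of that with NT_siRNA (exact two-sided permutation p = 0.1, the smallest that 3 libraries against 3 can give), and -0.10 with UBR4_siRNA7 (exact permutation p = 0.9). Slow troponin I made up 0.556% ± 0.0916 of the summed Tnni1 and Tnni2 FPKM with UBR4_siRNA5 and 0.302% ± 0.331 with UBR4_siRNA7, against 0.182% ± 0.0465 with NT_siRNA (SD, n = 3 each).

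Troponin T behaved likewise, with Tnnt3/Tnnt1 ratios of 548, 450.4 and 768 with UBR4_siRNA5 and of 1825, 545 and 1166 with UBR4_siRNA7, against 1621, 1192 and 1449.8 with NT_siRNA. The UBR4_siRNA5 ratios again lay below all NT_siRNA ratios, and those of UBR4_siRNA7 spanned both groups. The log2 difference was -1.29 with UBR4_siRNA5 (40.8% of the NT_siRNA ratio, exact permutation p = 0.1) and -0.42 with UBR4_siRNA7 (exact permutation p = 0.6). For both constructs together it was -0.86 (exact permutation p = 0.143), with 5 of 6 UBR4 siRNA libraries below every NT_siRNA library. With single libraries left out it was -1.11 to -0.70 (exact permutation p = 0.0357 to 0.286). The lowest p came without replicate 1 of UBR4_siRNA7, the 1 UBR4 siRNA library not below NT_siRNA. It is the smallest that the remaining libraries can give.

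Troponin C did not separate either construct from NT_siRNA. Its Tnnc2/Tnnc1 ratios were 1805, 1255 and 1807 with UBR4_siRNA5 and 3300.3, 1983 and 1882 with UBR4_siRNA7, against 1739, 3077 and 3748 with NT_siRNA. The log2 difference was -0.76 with UBR4_siRNA5 (exact permutation p = 0.3) and -0.23 with UBR4_siRNA7 (exact permutation p = 0.8). Between constructs, every UBR4_siRNA7 ratio lay above every UBR4_siRNA5 ratio, a difference of 0.53 (exact permutation p = 0.1).

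Tropomyosin ratios of Tpm1 to Tpm3 were 354, 189 and 350.2 with UBR4_siRNA5 and 384, 351 and 263 with UBR4_siRNA7, against 364, 385 and 601 with NT_siRNA. With UBR4_siRNA5 all lay below NT_siRNA, and replicate 1 of UBR4_siRNA7 lay among the NT_siRNA ratios. The log2 difference was -0.61 with UBR4_siRNA5 (exact permutation p = 0.1), -0.42 with UBR4_siRNA7 (exact permutation p = 0.2) and -0.52 for both together (exact permutation p = 0.0476, Benjamini-Hochberg adjusted p = 0.32 over 16 ratio tests). With reads of Tpm3 and Tpm3-rs7 joined, that difference was -0.48 (exact permutation p = 0.143), and leaving out any single library except replicate 1 of UBR4_siRNA7 gave p of 0.0714 or 0.143. Over all 16 ratio tests the lowest Benjamini-Hochberg adjusted p was 0.32. The smallest possible exact permutation p is 0.1 for 3 libraries against 3 and 0.0238 for 6 against 3. No ratio could therefore pass this correction at 0.05, so the failure to pass says nothing about the ratios.

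**Figure D4:**
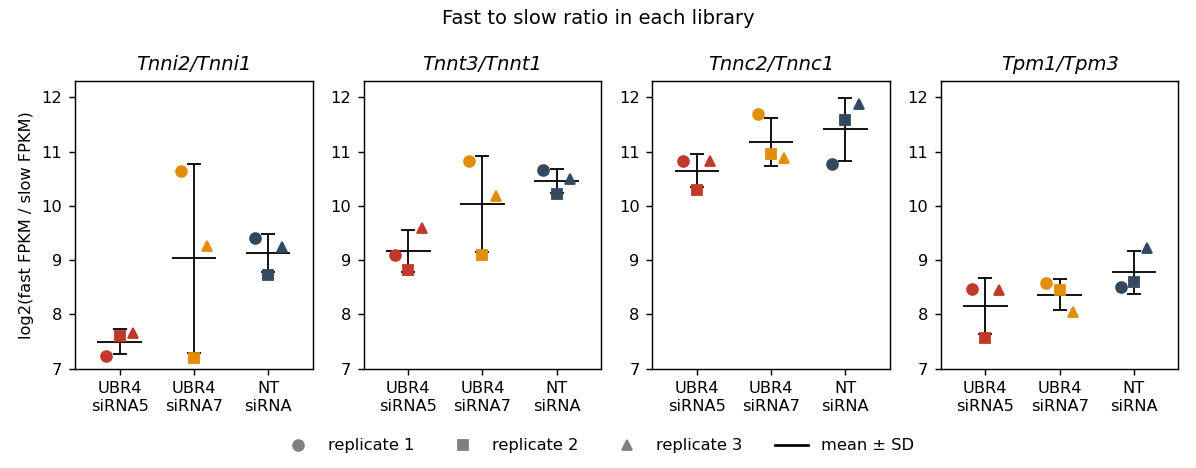
Log2 of the fast to slow FPKM ratio (vertical axis, the same range in each panel, not starting at 0) for Tnni2/Tnni1, Tnnt3/Tnnt1, Tnnc2/Tnnc1 and Tpm1/Tpm3 in each library of UBR4_siRNA5, UBR4_siRNA7 and NT_siRNA; bars are the mean ± SD. In the troponin I and T panels the UBR4_siRNA5 libraries and replicate 2 of UBR4_siRNA7 lie below all NT_siRNA libraries, and replicate 1 of UBR4_siRNA7 lies above them.

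Among the tropomyosins, Tpm2 made up 54.1% ± 4.22 of the summed Tpm1, Tpm2 and Tpm3 FPKM with UBR4_siRNA5 and 54.7% ± 4.04 with UBR4_siRNA7, against 51.2% ± 1.54 with NT_siRNA (SD, n = 3 each). The ratio of Tpm2 to Tpm1 averaged 1.20 ± 0.213 with UBR4_siRNA5 and 1.22 ± 0.190 with UBR4_siRNA7, against 1.05 ± 0.0648 with NT_siRNA (SD, n = 3 each). The spread was larger than the difference (exact permutation p = 0.4 and 0.3). The balance between subunits varied little: summed troponin T over summed troponin I was 2.72 ± 0.0317 with UBR4_siRNA5 and 2.76 ± 0.0802 with UBR4_siRNA7, against 2.68 ± 0.0415 with NT_siRNA (SD, n = 3 each). Summed troponin C over summed troponin I was 2.44 ± 0.0561 with UBR4_siRNA5 and 2.35 ± 0.0662 with UBR4_siRNA7, against 2.32 ± 0.0348 with NT_siRNA (SD, n = 3 each).

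Other isoforms of these families were mixed. Tnnt2, cardiac troponin T, which embryonic and regenerating skeletal muscle also makes, stood at 16.01, 11.2 and 10.7 FPKM with UBR4_siRNA5 and at 3.69, 15.4 and 4.43 FPKM with UBR4_siRNA7, against 4.41, 7.75 and 6.61 FPKM with NT_siRNA. Its highest 4 libraries were those of Tnni1 and Tnnt1, and its log2 change was 0.92 (SE 0.414, limma adjusted p = 0.162) with UBR4_siRNA5 and 0.07 (SE 0.414, limma adjusted p = 0.982) with UBR4_siRNA7. Tnni1 and Tnnt2 are near neighbours on chromosome 1 of GRCm38.p6, with 1 gene (Lad1) between them. Fast Tnni2 and Tnnt3 are near neighbours on chromosome 7, with 2 genes between them. Tnnt1 and the cardiac troponin I gene Tnni3 are adjacent on chromosome 7, but Tnni3 was near the floor at 0.0722 to 0.298 FPKM, or 5 to 19 reads. Tpm4, a tropomyosin of non-muscle cells and of repair, averaged 32.7 ± 4.04 FPKM with UBR4_siRNA5 and 28.3 ± 6.84 FPKM with UBR4_siRNA7, against 27.9 ± 5.61 FPKM with NT_siRNA (SD, n = 3 each).

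The libraries with high Tnni1 also had high levels of most listed genes of embryonic and regenerating fibres, but not of the most abundant, Actc1. The 4 libraries highest in Tnni1, which were UBR4_siRNA5 replicates 1 to 3 and UBR4_siRNA7 replicate 2, were also the 4 highest for Myh3 (embryonic myosin), Myh8 (perinatal myosin), Myl4 (embryonic light chain), Myog (a differentiation factor), Tmem8c (a fusion protein), Chrng (the fetal acetylcholine receptor subunit) and Ncam1. These 7 genes, of a list of 9, were singled out after their values were seen. Of that list, which also holds Tnnt2, 0 of 9 passed the test with UBR4_siRNA5, the median log2 change was 0.93, and 8 lay wholly above NT_siRNA, where 33% of all tested genes did. That share was 10.9% with median-ratio scaling and 11.2% after quantile normalization, but the list was counted only as deposited. With UBR4_siRNA7, 0 of 9 passed and the median was 0.22. Over all tested genes the medians were 0.13 and 0.02 in these comparisons, and 5.27% and 0.0556% passed. Myh3 gave 8.61, 7.14 and 8.12 FPKM with UBR4_siRNA5 and 0.684, 7.19 and 2.24 FPKM with UBR4_siRNA7, against 0.766, 3.16 and 2.59 FPKM with NT_siRNA (log2 change 1.59, SE 0.504, limma adjusted p = 0.0813 with UBR4_siRNA5). Myh8, the second most abundant of the list after Actc1, had a log2 change of 0.71 (limma adjusted p = 0.0639) in that comparison. Cardiac actin Actc1 went the other way, averaging 776 FPKM with UBR4_siRNA5 against 964 FPKM with NT_siRNA, with overlap. Its highest library carried NT_siRNA, and 2 of its highest 4 libraries were in common with Tnni1. The summed list therefore overlapped, at 714 to 1005 FPKM with UBR4_siRNA5 against 566 to 1409 FPKM with NT_siRNA. The share of all tested genes with the same highest 4 libraries was not counted.

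Other markers of slow fibres were mixed. Myh7, the slow myosin heavy chain and the defining marker of slow fibres, was under the test's filter, at 0.880, 0.856 and 0.748 FPKM with UBR4_siRNA5 and 0.384, 0.258 and 1.11 FPKM with UBR4_siRNA7, against 1.49, 0.321 and 0.0598 FPKM with NT_siRNA. Its highest library carried NT_siRNA, and the groups overlapped. Of its highest 4 libraries 2 were in common with Tnni1, as for the slow light chains Myl2 and Myl3. Atp2a2, the slow calcium pump, had all 4 in common, at 16.3 FPKM on average with UBR4_siRNA5, against 9.73 FPKM with NT_siRNA (log2 change 0.68, SE 0.232, limma adjusted p = 0.0949). Myh7, Myl2, Myl3 and Atp2a2 were named after their values were seen, and no share over all tested genes was counted for these matches. Of 11 tested genes of 14 on the slow fibre list, 1 passed with UBR4_siRNA5, where 5.27% of all tested genes did. It was Sln, the calcium pump regulator sarcolipin, which rose by 2.56 (SE 0.589, limma adjusted p = 0.0491). With UBR4_siRNA7, 0 of 11 passed, where 0.0556% of all tested genes did. The medians were 0.25 and 0.17 with UBR4_siRNA5 and UBR4_siRNA7. Sln gave 117, 42.7 and 39.6 FPKM with UBR4_siRNA5 and 45.1, 100.2 and 24.3 FPKM with UBR4_siRNA7, against 4.24, 14.3 and 11.8 FPKM with NT_siRNA, with no overlap. Of the 11 genes, 2 lay wholly above NT_siRNA with UBR4_siRNA5, where 33% of all tested genes did as deposited. With both constructs 1 of 11 did, where 8.04% of all tested genes did. The call of Sln held in 3 of 17 alternative fits, with adjusted p of 0.0411 to 0.156 (limma), and was lost without any 1 library except replicate 2 of UBR4_siRNA7. The most abundant genes of the list were Mb (myoglobin) and Mybpc1 (slow myosin binding protein C), with log2 changes of -0.06 and 0.11 with UBR4_siRNA5.

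**Figure D5:**
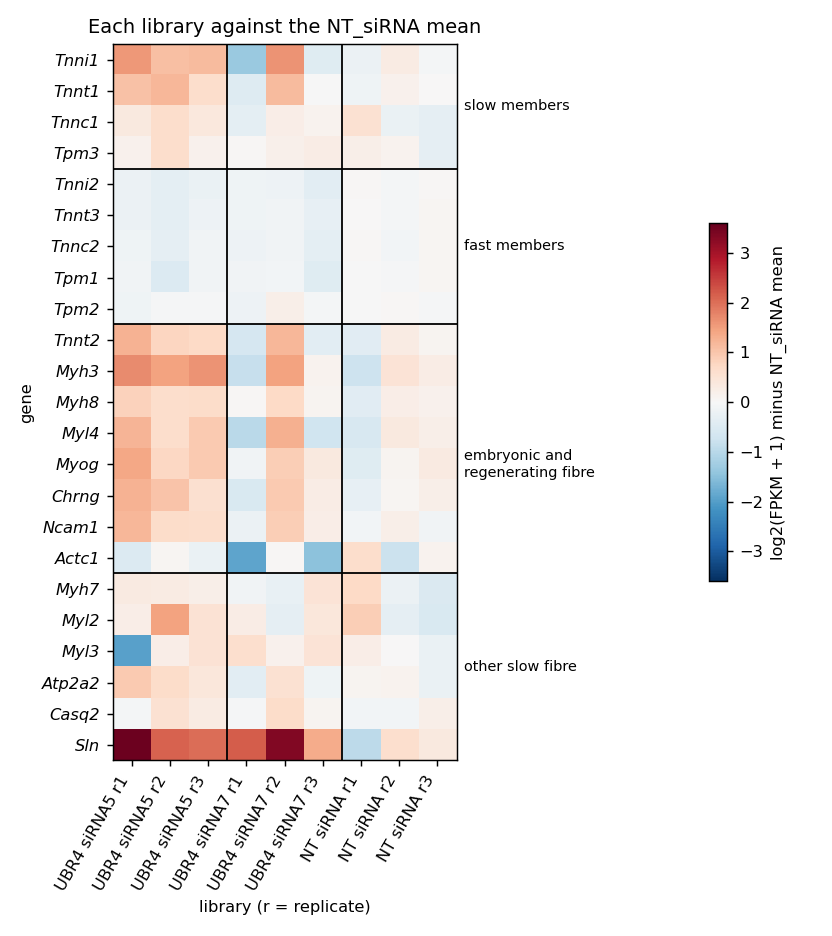
Difference of log2(FPKM + 1) from the NT_siRNA mean (colour, red higher and blue lower) for the 9 members and for genes of embryonic and regenerating fibres and of slow fibres (rows) in each library (columns, UBR4_siRNA5, UBR4_siRNA7 and NT_siRNA). Tnni1, Tnnt1, Tnnt2 and Myh3 are red in the UBR4_siRNA5 libraries and in replicate 2 of UBR4_siRNA7, Myh7 is paler and is blue in replicate 2 of UBR4_siRNA7, and the fast members are pale throughout.

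Markers of cell types other than muscle fibres also differed between libraries. The 9 macrophage markers summed to 211 to 381 FPKM with UBR4_siRNA5 and to 100.4 to 162 FPKM with UBR4_siRNA7, against 127 to 188 FPKM with NT_siRNA, and Lyz2 rose with UBR4_siRNA5 (log2 change 0.90, limma adjusted p = 0.0491). It was the 1 call among 8 tested, where 5.27% of all tested genes were called. Of the 8, 7 lay wholly above NT_siRNA, where 33% of all tested genes did. That share was 10.9% with median-ratio scaling and 11.2% after quantile normalization, but these markers were counted only as deposited. C1qb, the next most abundant, had a log2 change of 0.84 (limma adjusted p = 0.0939). The 8 fibroblast and matrix markers summed to 665 to 970 FPKM with UBR4_siRNA5 and to 404 to 483 FPKM with UBR4_siRNA7, against 519 to 618 FPKM with NT_siRNA, and Col1a2 rose with UBR4_siRNA5 (log2 change 0.61, limma adjusted p = 0.0491). It was the 1 call among 8, where 5.27% of all tested genes were called. The most abundant of the 8, Sparc and Dcn, had log2 changes of 0.31 and 0.21. The calls of Lyz2 and Col1a2 each held in 4 of 17 alternative fits (limma adjusted p up to 0.154 and 0.138) and were lost when any library but replicate 3 of UBR4_siRNA5 or replicate 2 of UBR4_siRNA7 was left out. With UBR4_siRNA7 against UBR4_siRNA5, Lyz2 and 4 of the 8 matrix genes fell, where 1.22% of all tested genes were called. Col1a1, Col1a2, Col3a1 and Postn had log2 changes of -1.28, -1.14, -1.09 and -1.79 (limma adjusted p = 0.0201, 0.0174, 0.0443 and 0.0488). These 4 matrix calls held in 12, 13, 7 and 3 of 17 alternative fits. All 4 were lost without replicate 1 or replicate 3 of UBR4_siRNA7 (limma adjusted p up to 0.146). Lyz2 fell by 1.29 (limma adjusted p = 0.0325), a call that held in 10 of 17. The part of these cells in the values of the troponin genes was not tested. Of the cardiac list, Tnnt2 alone passed the filter on low values, and Ryr2 reached 0.0155 FPKM at most, Nppa 0.0805 FPKM, Tnni3 0.298 FPKM and Myh6 0.661 FPKM. The 5 cardiac genes summed to 11.2 to 16.3 FPKM with UBR4_siRNA5 and to 4.48 to 16.04 FPKM with UBR4_siRNA7, against 5.31 to 8.22 FPKM with NT_siRNA. None of 6 tested smooth muscle markers of 9 and none of 6 endothelial markers passed in any comparison. Des and Synm, the most abundant of the smooth muscle list, are also made by skeletal muscle fibres and had log2 changes of 0.16 and 0.12 with UBR4_siRNA5. Myh11 and Acta2, smooth muscle myosin and actin, named here after their values were seen, had -0.18 and -0.11 (limma adjusted p = 0.507 and 0.715). Cdh5 and Pecam1, the most abundant endothelial markers, had -0.04 and 0.00. List medians with UBR4_siRNA5 and UBR4_siRNA7 were 0.81 and -0.15 for macrophage, 0.41 and -0.41 for matrix, -0.01 and -0.10 for smooth muscle and -0.02 and -0.03 for endothelial markers.

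Partners of the troponins on the thin filament gave no call: 0 of 17 measured genes of 19 listed passed in any comparison, with medians of 0.10 with UBR4_siRNA5 and 0.08 with UBR4_siRNA7. Acta1, skeletal actin, was the most abundant, at 18066.5, 17609.5 and 19330.3 FPKM with UBR4_siRNA5 and 13882, 18793 and 15141 FPKM with UBR4_siRNA7, against 20568, 19940.2 and 19902 FPKM with NT_siRNA. All 6 UBR4 siRNA libraries of Acta1 lay below the NT_siRNA ones (log2 change -0.14, limma adjusted p = 0.447 with UBR4_siRNA5, and -0.35, limma adjusted p = 0.406 with UBR4_siRNA7). Of the 17 partners, 13 had a positive log2 change with UBR4_siRNA5, 11 with UBR4_siRNA7 and 12 with the constructs pooled against NT_siRNA. In the pooled comparison 2 lay wholly below NT_siRNA, where 1.45% of all tested genes did, and 1 lay wholly above, where 8.04% did. The second one below was Xirp2 (log2 change -0.34, limma adjusted p = 0.128) and the one above was Cfl2 (0.25, limma adjusted p = 0.138), both named after their values were seen. Actc1, cardiac actin, averaged 776 FPKM with UBR4_siRNA5 and 497 FPKM with UBR4_siRNA7, against 964 FPKM with NT_siRNA, and the groups overlapped. Of the other fast fibre genes 0 of 14 passed in any comparison, and their medians were 0.01 with UBR4_siRNA5 and -0.05 with UBR4_siRNA7. Their most abundant genes were Mylpf, the fast regulatory light chain (log2 change -0.15 with UBR4_siRNA5), and Pvalb, the calcium buffer parvalbumin (0.10).

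Of 18 tested regulators of fibre type, 1 passed with UBR4_siRNA5, where 5.27% of all tested genes did. Mef2a, a muscle transcription factor, rose to 22.1 FPKM on average, against 17.2 FPKM with NT_siRNA (log2 change 0.35, SE 0.0765, limma adjusted p = 0.0476). The call held in 5 of 17 alternative fits, with adjusted p of 0.0411 to 0.232 (limma), and was lost when any library but replicates 1 and 2 of UBR4_siRNA7 was left out. Sox6, a repressor of slow fibre genes, had log2 changes of -0.05 (limma adjusted p = 0.750) with UBR4_siRNA5 and -0.03 (limma adjusted p = 0.973) with UBR4_siRNA7. Tead1, which binds M-CAT elements, had 0.19 (limma adjusted p = 0.222) and 0.37 (limma adjusted p = 0.324) in the same comparisons. The most abundant regulators, Mef2c and Tbx15, had -0.08 and 0.03 with UBR4_siRNA5. The median of the list was 0.12 with UBR4_siRNA5 and 0.07 with UBR4_siRNA7, where 0 passed.

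Over the 9 libraries, the genes outside the set whose log2(FPKM + 1) followed Tnni1 most closely were Itga5, an integrin subunit (Pearson r = 0.982), Ccs, a copper chaperone (0.982), the unnamed gene model A930003A15Rik (0.980), Cilp, a matrix protein (0.978), and Tmem132a (0.977). In comparison r with Tnni1 was 0.971 for Tnnt2, 0.948 for Tnnt1, 0.580 for Tnnc1 and 0.326 for Tpm3. Those closest to Tnni2 were Vps72, a chromatin protein (0.936), Mafa, a transcription factor (0.903), Hr, a corepressor (0.901), Eif2s2, a translation initiation factor (0.899), and Rtn2, a reticulon (0.896). Within the set r with Tnni2 was 0.980 for Tnnt3, 0.953 for Tnnc2, 0.908 for Tpm1 and 0.148 for Tpm2. These values describe the same 9 libraries, which share their groups and scaling, and carry no test.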

How the data were processed

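Total RNA of 9 tibialis anterior libraries was sequenced, 3 for each of UBR4_siRNA5, UBR4_siRNA7 and NT_siRNA. The authors deposited FPKM values for 23231 genes on mm9, with BWA, STAR and HTSeq named in the submitters' processing notes without versions or roles. Here log2(FPKM + 1) of the 10794 genes with a mean of at least 1 FPKM was fitted with limma 3.58.1 (R 4.3.3, group means over 9 libraries, eBayes with trend), in 4 comparisons, with Benjamini-Hochberg adjustment in each. Ratios of FPKM were compared by exact two-sided permutation of libraries, with every split enumerated in Python 3.11.15 and adjustment over 16 tests. The permutation code was checked on an example with scipy 1.17.1. Reads were recovered from the steps of low FPKM values, and 72.8% of 51702 values under 50 reads were whole within 0.1 reads. On simulated data with 200 changed genes among 10794, modelled on UBR4_siRNA5 against NT_siRNA, the fit recovered 62% of changes of 0.5 and 95% of changes of 1 (log2). Of 163 calls 6 were false. The simulated noise was independent between genes and libraries, without scaling differences, and the changed genes were picked at random. These rates therefore need not hold for genes that vary as much as Tnni1 and Tnnt1.

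The members and gene lists were chosen with earlier results of these data known. All members were named, and from each list the called genes (up to 4 a comparison) and the 2 most abundant, plus Sox6, Tead1 and the 5 genes most like Tnni1 and Tnni2. Other genes were named after their values were seen. Alternatives were other filters (none, or 5 FPKM), a pseudocount of 0.1, quantile normalization, median-ratio scaling, fits on a comparison's own libraries, a replicate block, and each library left out. Added after seeing the data were voom on recovered reads, Tpm3 joined with Tpm3-rs7, and the counts of non-overlapping members under these scalings and without single libraries.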

Additional observations from a re-analysis of the deposited data

How the results depend on the processing

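Of the values that answer a comparison, 286 under an alternative kept their direction and their side of the threshold, 22 no longer passed, 5 counts moved, 5 changed sign and 1 newly passed; of values for single genes 636 kept both, 92 no longer passed, 27 changed sign and 6 newly passed. The cause was not tested for any of them. The values that answer a comparison include ratio tests of 3 libraries against 3. Their exact permutation p cannot go below 0.1, so they could not change side under any alternative. Without the filter on low values Ubr4 kept its change and lost its call: -1.20 with UBR4_siRNA5, -1.47 with UBR4_siRNA7 and -1.33 with both. The count of called members with UBR4_siRNA5 was 2 with the libraries of that comparison alone, where 2.28% of all tested genes were called. The Tpm1/Tpm3 difference for both constructs was -0.14 between medians, -0.52 with a replicate block (p = 0.5 by exact permutation of signs), -0.41 with Tpm1 and Tpm2 summed and -0.48 with Tpm3 and Tpm3-rs7 joined. The count of fast members wholly below NT_siRNA with both constructs was 0 after quantile normalization, where 3.47% of all tested genes lay wholly below. With all libraries kept, the members that changed sign had small values. Tnnc1 with UBR4_siRNA7 gave -0.010 with median-ratio scaling and -0.019 with quantile normalization. With UBR4_siRNA7 against UBR4_siRNA5, Tnnc2 gave 0.14 with median-ratio scaling. Tnni2, Tpm1 and Tpm2 gave -0.13, -0.038 and -0.031 there with quantile normalization. Changes of sign with 1 library left out, among the ranges below, were not all near 0. The Tnni2/Tnni1 difference with UBR4_siRNA7 was 0.012 between medians. With 1 library left out, UBR4_siRNA7 against NT_siRNA gave -0.88 to 0.59 for Tnni1, -0.24 to 0.56 for Tnnt1, -0.15 to 0.28 for Tnnc1, -0.00037 to 0.27 for Tpm3 and -0.13 to 0.067 for Tpm2. UBR4_siRNA7 against UBR4_siRNA5 gave -0.23 to 0.0049 for Tpm3, -0.013 to 0.10 for Tnni2, -0.0019 to 0.10 for Tnnt3, -0.085 to 0.044 for Tnnc2, -0.10 to 0.14 for Tpm1 and -0.048 to 0.15 for Tpm2. Ubr4 gave -1.29 to -1.09 with UBR4_siRNA5, -1.56 to -1.38 with UBR4_siRNA7 and -1.43 to -1.25 with both. Ratios gave -0.90 to 0.82 for Tnni2/Tnni1 and -0.82 to 0.049 for Tnnt3/Tnnt1 with UBR4_siRNA7, -1.11 to -0.70 for Tnnt3/Tnnt1 and -0.65 to -0.29 for Tpm1/Tpm3 with both constructs, and -0.10 to 0.36 for Tpm1/Tpm3 between constructs. Members called ranged 0 to 2 with UBR4_siRNA5 and 0 to 2 between constructs, the 2 in each without replicate 2 of UBR4_siRNA7, where 5.38% and 3.59% of all tested genes were called. Slow members wholly above NT_siRNA with UBR4_siRNA5 ranged from 2 to 4, where 35.8% to 46.5% of all tested genes did. The 569 genes called with UBR4_siRNA5 became 316 with a pseudocount of 0.1, 5 without a filter, 204 with a filter at 5 FPKM (which leaves Tnnc1 untested), 197 with median-ratio scaling, 86 with quantile normalization, 246 with that comparison's libraries alone and 1 to 581 with 1 library left out. The 132 genes called between constructs became 10 without a filter, 48 with a filter at 5 FPKM, 58 with quantile normalization, 23 with the libraries of the comparison alone and 3 to 387 with 1 library left out. Deviations from the group mean correlated at -0.364 to 0.313 between same-numbered libraries and at -0.566 to 0.518 between others. With 3 libraries a group these values cannot show whether the numbers pair the libraries. A replicate block called 11 genes with UBR4_siRNA5 and 217 between constructs, and 0 members in any comparison. Depth limits the slow genes, most of all Tnnc1, and a count of 3 reads on 1 kilobase is 0.0658 to 0.102 FPKM.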
